A study of Mus musculus with 8 samples.

Results

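Epidermal progenitor cells (EpdSCs), the basal keratinocytes that renew the epidermis between hair follicles, were compared between Msx2-KO and WT mice. The members were chosen by the sample labels and were 4 of the 8 samples of the series, 2 WT and 2 Msx2-KO libraries of EpdSCs. All came from dorsal skin in telogen, the resting phase of the hair cycle, of mice aged 6 months. The Msx2-KO mice were homozygous for a germline Msx2 allele in which a neo selection cassette sits upstream of exon 2, per the study's methods. The deposited EpdSC tables call the group cKO instead, and this difference was not resolved. The WT mice were C57BL/6J animals at the matching hair cycle stage. Cells were sorted as CD34-CD49f+Sca-1+ and total RNA was sequenced in bulk. The labels give neither the sex of the mice nor how many animals went into a library, so the p-values below measure only the spread between these libraries.

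Msx2 is a homeobox transcription factor of the hair matrix and skin, known as a target of BMP signalling. Basal keratinocytes carry keratins 5 and 14 and are held to the basement membrane by hemidesmosomes built on integrin alpha6 beta4. As they move up they switch to keratins 1 and 10, add desmosomes and build the cornified envelope under the cell surface. The RNA classes of a cell also differ in how they end. Most messenger RNAs carry a poly(A) tail, whereas replication-dependent histone mRNAs end in a short stem-loop and most small nuclear, nucleolar and other structured RNAs have no tail.

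Values are the deposited normalised signal of a gene, an estimated count divided by a factor of its library, and are not divided by gene length. A gene was called where limma on log2(signal + 1) gave a Benjamini-Hochberg adjusted p under 0.05 over all 16231 genes and the fold change was over 2. Fold changes are on that log2 scale, Msx2-KO over WT, with the standard error, and understate the change of low genes. The smallest two-sided p that exact permutation of 2 libraries against 2 can give is 0.333, so single genes were not tested that way. Over all genes, 1263 were called lower in Msx2-KO (7.78% of those tested) and 255 higher (1.57%). Without WT replicate 1 or without WT replicate 2 the same fit gave 0 calls, with 2060 and 2077 genes at an unadjusted p under 0.05.

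From the size of a single count, the WT libraries held about 15213679 and 15479596 counted reads, against 19392526 and 21092705 for Msx2-KO. The Msx2-KO libraries had more genes listed at 0, 3281 and 945 against 281 and 210. Xist, the RNA that coats the inactive X chromosome of females, stood at 14989.6 and 0.948 in the WT libraries against 1.27 and 1738 in the Msx2-KO libraries. The Y-linked Ddx3y went the other way, at 0 and 604 in the WT libraries against 1944 and 0 in the Msx2-KO libraries, as did Eif2s3y, Kdm5d and Uty. Each genotype therefore held 1 library with Xist and 1 with Y-linked RNA. The library names in the labels place both WT libraries in one range of numbers and both Msx2-KO libraries in another, so genotype and library series cannot be told apart.

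The targeted gene did not separate the genotypes. Msx2 (chr13:53466884-53473074 of GRCm38) stood at 58.5 and 85.4 in the WT libraries against 150.3 and 22.2 in the Msx2-KO libraries, so that the WT values lay between the Msx2-KO values (log2 fold change -0.27 ± 1.10, adjusted p = 0.865, limma with Benjamini-Hochberg adjustment). Without Msx2-KO replicate 2, the library with the low value, the log2 fold change was 1.08. By RNAscope in skin sections, the study reported that Msx2 RNA was absent from Msx2-KO mice. The cassette sits upstream of exon 2, and whether the signal summed over the whole gene should fall with it was not tested. Where in the gene the reads lay was not analysed here. The label is therefore not checked by this gene, and "Msx2-KO" below means the libraries labelled so.

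The basal keratins Krt14 and Krt5 were abundant in all 4 libraries, while other basal markers lay in both directions. All 14 markers of the interfollicular basal epidermis were in the table, and 0 of them passed the test (limma, 2 higher and 3 lower at an unadjusted p under 0.05). Both Msx2-KO libraries lay above both WT libraries in 7 of the 14 and below them in 4, against 31.2% and 40.3% of all protein-coding genes. The 4 were Itgb4, Itga3, Thbs1 and Dst, the last at 54529 and 78763 in WT against 19603 and 7249 in Msx2-KO. Krt14, a basal keratin, stood at 71869 and 84155 in the WT libraries against 392157 and 275191 in the Msx2-KO libraries (log2 fold change 2.08 ± 0.50, adjusted p = 0.0832). Its partner Krt5 stood at 97473 and 115290 in the WT libraries against 139417 and 131906 in the Msx2-KO libraries (log2 fold change 0.36 ± 0.47, adjusted p = 0.597). Both Msx2-KO libraries exceeded both WT libraries for each of these keratins. Trp63, the transcription factor that defines stratified epithelia, stood at 13674 and 15069.5 in WT against 45362 and 13178 in Msx2-KO, so the groups overlapped. Of the genes behind the sort, Itga6 (CD49f) stood at 8229 and 9959 in the WT libraries against 68397 and 32855 in the Msx2-KO libraries (log2 fold change 2.39 ± 0.61, adjusted p = 0.089) and Ly6a (Sca-1) at 472 and 544 in the WT libraries against 826 and 3493 in the Msx2-KO libraries. Both were higher in each Msx2-KO library than in either WT library, and neither passed the test. Cd34, against which the cells were gated, was not listed in the table.

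Small and ribosomal RNAs, which carry out splicing, RNA processing and translation, were the class with the largest share of calls. Of 90 small and ribosomal RNA genes, 68 were called lower in Msx2-KO and 0 higher (limma, where 0 higher and 81 lower had an unadjusted p under 0.05), and in 85 both Msx2-KO libraries lay below both WT libraries. Together these genes took 29.2% and 22.8% of the signal in the WT libraries against 0.144% and 7.72% in the Msx2-KO libraries. Protein-coding genes took 63.1% and 70.2% in WT against 94.5% and 88.1% in Msx2-KO. The share that called genes made of their class was 75.6% for lower small and ribosomal RNAs, against 33.8% for TEC genes (loci that the annotation marks as awaiting experimental evidence), 19.3% for long noncoding RNAs, 11.2% for pseudogenes and 3.75% for protein-coding genes. In bulk samples, fewer cells of a type and less RNA per cell cannot be told apart.

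**Figure D1:**
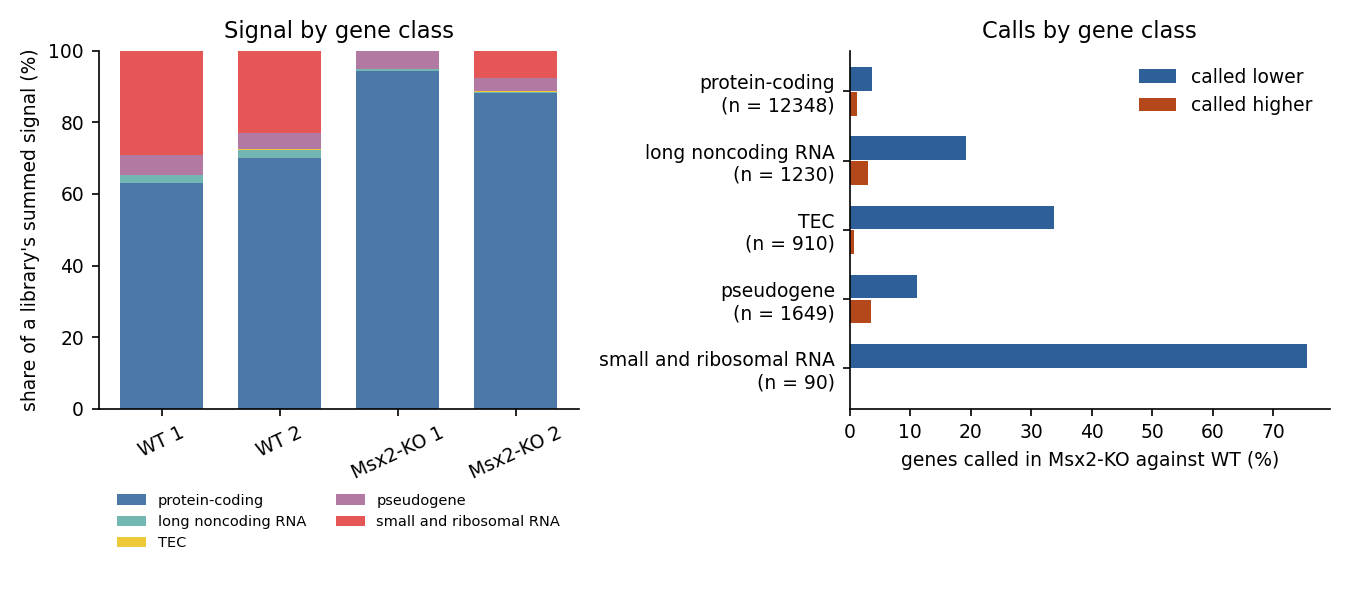
Left, share of each library's summed signal (%) taken by each gene class, 1 bar per library. Right, share of the genes of each class (%) called lower or higher in Msx2-KO against WT, 2 libraries against 2. Small and ribosomal RNA took 29.2% and 22.8% in WT against 0.144% and 7.72% in Msx2-KO, and 75.6% of its genes were called lower.

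Replication-dependent histone genes, which supply the histones for newly made DNA in S phase, were the gene list with the largest share of calls. Of 60 in the table, 48 were called lower in Msx2-KO and 0 higher (2 had an unadjusted p under 0.05 and a higher mean), with a median log2 fold change of -6.80, or -6.63 without the 29 members that stood below 0.01 in both libraries of a group. Over all 16231 genes the median was -0.64, and 3.75% of all protein-coding genes were called lower. H2ac18, an H2A gene (chr3:96245497-96246082), stood at 5009 and 6448 in the WT libraries against 0 and 3.91 in the Msx2-KO libraries (log2 fold change -11.33 ± 0.96, adjusted p = 0.0266). H2ac20, a neighbour on chromosome 3, stood at 1337 and 1197 in the WT libraries against 0 and 1.35 in the Msx2-KO libraries (log2 fold change -9.69 ± 0.64, adjusted p = 0.0266). The Msx2-KO values of both genes were near 0, and no library of one genotype reached the range of the other. H2ac10, H2ac15, H2ac4, H3c13 and H3c15, the other histones among the 12 largest falls, stood between 284 and 690 in the WT libraries and at 0 or below 1 in the Msx2-KO libraries. Of the 31 members with a transcript length, 19 were called lower after the correction for length and GC content, chosen after the data were seen.

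Histone copies are nearly identical in sequence, so the signal of a single copy is uncertain and the families were also summed. The 16 H2A genes summed to 12226 and 11278 in WT against 0 and 169 in Msx2-KO. The 15 H2B genes summed to 2712 and 2130 in WT against 145 and 310.0 in Msx2-KO, and the 12 H4 genes to 2637 and 2788 in WT against 96.8 and 43.1 in Msx2-KO. Both Msx2-KO sums lay below both WT sums in each of these families, as they did for the 12 H3 genes (2791 and 1835 against 197 and 19.8) and the 5 H1 linker histone genes (12998 and 10243 against 2435 and 896).

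The 3' ends of these genes were read from GENCODE M21 transcripts of GRCm38, to show the structure that stands in place of a poly(A) tail. Of the 60 genes, 31 matched a transcript by current or older symbol, and 15 of the 31 (48.4%) held a stem of 6 bases around a loop of 4 bases within their last 100 bases, against 18.6% of 12263 other protein-coding genes. None of those other genes (0%) held a stem-loop with the letters of a histone one, and its commonest form, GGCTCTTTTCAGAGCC, was present in 8 histone genes. Any 6 bases whose reverse complement followed after 4 bases counted, on the transcript strand. The 15 include H1f3 and H2bc21, whose stems hold only A and T and need not be the histone structure. A gene without a match was not shown to lack the structure, since only annotated ends were searched. The match is in capitals, from 4 histone genes called lower that differ in its letters, with H2bc21, which was not called, last.
H2ac18, chr3:96246027-96246052, plus strand: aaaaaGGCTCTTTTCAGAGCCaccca
H2ac20, chr3:96220413-96220438, minus strand: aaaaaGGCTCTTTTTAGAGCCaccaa
H2bc3, chr13:23747198-23747223, plus strand: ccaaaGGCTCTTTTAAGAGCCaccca
Hist1h4n, chr13:21831793-21831818, minus strand: ctaaaGGCCCTTTTCAGGGCCatcca
H2bc21, chr3:96223701-96223726, plus strand: cactgTTATTATTATTAATAAagtta
H2bc3 stood at 313 and 269.7 in the WT libraries against 0 in both Msx2-KO libraries, and Hist1h4n at 181 and 132 in the WT libraries against 0 in both Msx2-KO libraries. H2bc21, whose match holds only A and T, stood at 40.1 and 46.5 in the WT libraries against 126 and 266 in the Msx2-KO libraries. It was higher in both Msx2-KO libraries than in either WT library but not past the test (limma, log2 fold change 2.06 ± 0.61, adjusted p = 0.11). Low values in Msx2-KO were also found in H1f3, whose match has a stem of A and T, 67 bases from its transcript end. H1f3 stood at 2374 and 2036 in the WT libraries against 0 and 49.9 in the Msx2-KO libraries and was not called. H2ac19, Hist1h2ao and Hist1h2ap, which hold the commonest form, were not called either. A match is a description of these letters and no test of how the transcript is processed.

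Structured noncoding RNAs were also lower. Rpph1, the RNA of the tRNA-processing enzyme RNase P, stood at 98669 and 98990.1 in the WT libraries against 0 and 1.35 in the Msx2-KO libraries (log2 fold change -15.98 ± 0.64, adjusted p = 0.0266). Rn7sk, the 7SK RNA that holds the elongation factor P-TEFb inactive, stood at 190271 and 245493 in the WT libraries against 383 and 3051 in the Msx2-KO libraries (log2 fold change -7.64 ± 1.18, adjusted p = 0.0438), and Rn7s2, a signal recognition particle RNA, at 291224 and 320231 in WT against 2395 and 7714 in Msx2-KO (log2 fold change -6.15 ± 0.77, adjusted p = 0.0312). In each, the highest Msx2-KO library lay far below the lowest WT library. Of 41 snoRNA genes, 37 were called lower and 0 higher (limma, where 0 had a higher mean at an unadjusted p under 0.05), and their summed signal was 14864 and 11917 in WT against 1.91 and 82.9 in Msx2-KO. For 22 snRNA genes, the RNAs of the spliceosome, 19 were called lower and 0 higher (limma, where 0 had a higher mean at an unadjusted p under 0.05), and the sums were 44257 and 23445 in WT against 3.82 and 7.41 in Msx2-KO. Scarna10 and the snRNA gene Gm22513, which had the largest falls of their types, stood at 2425 and 4136 in WT against 0 in both Msx2-KO libraries and at 10036 and 5404 in WT against 0 in both Msx2-KO libraries. The mitochondrial 12S rRNA, mt-Rnr1, stood at 1536390 and 957311 in the WT libraries against 1007 and 2913 in the Msx2-KO libraries (log2 fold change -9.47 ± 0.76, adjusted p = 0.0266).

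A few structured RNAs did not pass the test, some with a high second Msx2-KO library. The mitochondrial 16S rRNA, mt-Rnr2, stood at 2330130 and 1444870 in the WT libraries against 17028 and 875881 in the Msx2-KO libraries (log2 fold change -3.91 ± 2.12, adjusted p = 0.253), and the rRNA gene CT010467.1 at 199009 and 117252 in the WT libraries against 5369.9 and 197586 in the Msx2-KO libraries. In both, the second Msx2-KO library was far closer to the WT libraries than to the first. Rmrp, the RNA of RNase MRP, stood at 36604 and 34354 in the WT libraries against 6400.1 and 1998 in the Msx2-KO libraries (log2 fold change -3.31 ± 0.76, adjusted p = 0.0779). Rn7s6, a further signal recognition particle RNA, stood at 407 and 328 in the WT libraries against 186 and 648 in the Msx2-KO libraries, with overlapping groups. The labels name the same total RNA kit for all 4 libraries, and whether library preparation has a part in these differences was not tested.

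**Figure D2:**
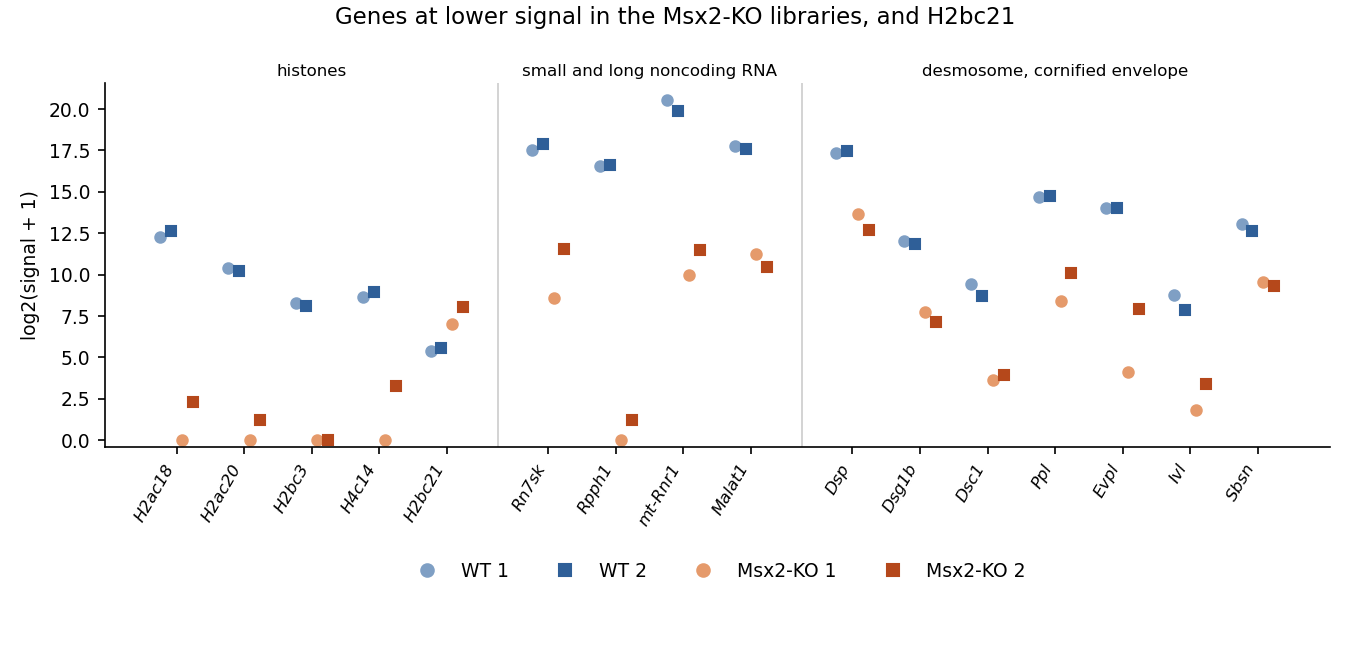
Normalised signal of 16 genes in each library, as log2(signal + 1), 1 point per library (circles, replicate 1; squares, replicate 2). The Msx2-KO points of H2ac18, Rpph1, Dsp and the others lie below both WT points, and those of H2bc21 above them.

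Long noncoding RNAs were lower as a class, with 238 of 1230 called lower and 38 higher and a median log2 fold change of -2.24 against -0.64 over all genes. Malat1, a nuclear RNA of splicing speckles that ends in a triple helix instead of a tail, stood at 224974 and 194454 in the WT libraries against 2400.3 and 1437 in the Msx2-KO libraries (log2 fold change -6.81 ± 0.54, adjusted p = 0.0266). Neat1, the scaffold of paraspeckles, stood at 12242 and 12929.8 in the WT libraries against 47.1 and 1121 in the Msx2-KO libraries and did not pass the test (log2 fold change -5.76 ± 1.71, adjusted p = 0.111). In both, each Msx2-KO library lay below each WT library. The largest fall among antisense genes, Gm16278 (282 and 230 in WT against below 0.01 in both Msx2-KO libraries), overlaps Pigq and Rab40c. Whether counting used strand is not stated, so the reads of such pairs cannot be told apart. TEC genes gave 308 calls lower and 6 higher among 910, and Gm37376, the largest fall, lies inside Malat1 (1453 and 199.6 in WT against 0 in both Msx2-KO libraries).

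Pseudogenes gave 185 calls lower and 59 higher among 1649. The largest rise, Rps15a-ps3, stood at 0 in both WT libraries against 14909 and 1013 in the Msx2-KO libraries, and its parent gene Rps15a stood at 2096 and 1876 in the WT libraries against 269738 and 15019.6 in the Msx2-KO libraries. Both had their higher values in Msx2-KO, and reads of near-identical copies could have been divided between them in counting. The largest fall among processed pseudogenes, Gm11847, stood at 669 and 616 in the WT libraries against 0 and 3.03 in the Msx2-KO libraries.

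Among 12348 protein-coding genes, 463 were called lower in Msx2-KO (3.75%) and 152 higher (1.23%), with a median log2 fold change of -0.32. In 4971 genes (40.3%) neither Msx2-KO library reached the lower WT value, and in 3851 (31.2%) neither fell to the higher one. An unadjusted p under 0.05 was reached by 2145 lower genes (17.4%) and 1617 higher genes (13.1%). These shares are the background for the gene lists that follow. These calls depended on the genes tested beside them. When only protein-coding genes entered limma and the adjustment, 0 were called in either direction, with 3911 at an unadjusted p under 0.05 and a smallest adjusted p of 0.0501. Leaving out Msx2-KO replicate 1 or Msx2-KO replicate 2 instead raised the calls to 2661 and 4498 lower and to 1721 and 3284 higher.

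The 5 largest rises were genes close to 0 in both WT libraries that overlap another gene, namely Gm10401, Commd1b, Rdh9, Gm9747 and Ccdc152. Gm10401 was below 0.01 in both WT libraries against 1528 and 2611 in the Msx2-KO libraries and lies within the span of Sppl3, and Ccdc152, which overlaps the selenoprotein gene Selenop, was below 0.01 in both WT libraries against 512 and 184 in the Msx2-KO libraries. No fold is given against a group at or near 0. Reads of overlapping pairs cannot be told apart here, which also holds for Dnah14, Arpc4, Crispld2, Laptm4b, Gm38394 and Dgkq. Dnah14, a dynein heavy chain gene that overlaps Lbr, rose from 6.18 and 15.7 to 2774 and 660.3 (log2 fold change 6.95 ± 0.98, adjusted p = 0.0381).

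The other 6 of the 12 largest rises were Rpl27, Tmem185a, Crispld2, Itm2c, Arpc4 and Laptm4b. Rpl27, a ribosomal protein of the large subunit, stood at 187 and 231 in the WT libraries against 16381 and 18071 in the Msx2-KO libraries (log2 fold change 6.36 ± 0.47, adjusted p = 0.0266). Arpc4, a subunit of the actin-nucleating Arp2/3 complex whose gene overlaps Ttll3, stood at 784 and 669 in the WT libraries against 96505 and 26862 in the Msx2-KO libraries (log2 fold change 6.13 ± 0.81, adjusted p = 0.0345). Laptm4b, a lysosomal membrane protein whose gene overlaps Gm18949, stood at 226 and 209 in the WT libraries against 23904 and 9782 in the Msx2-KO libraries (log2 fold change 6.13 ± 0.66, adjusted p = 0.0277). In these genes the lowest Msx2-KO library was over 10 times the highest WT library. Itm2c (249 and 278 in WT against 16595 and 21871 in Msx2-KO), Tmem185a (99.6 and 63.5 in WT against 9092 and 4475 in Msx2-KO) and Crispld2 (106 and 25.6 in WT against 6038 and 2576 in Msx2-KO), which overlaps Galnt2l, rose by log2 fold changes of 6.17, 6.31 and 6.21. Among further called rises, chosen after their values were seen, were Cdc42 (1462 and 1368 in WT against 15810.5 and 15535 in Msx2-KO) and Rac1 (2351 and 2176 in WT against 51809 and 28606 in Msx2-KO), small GTPases of the cytoskeleton, and the alarmin Il33 (526 and 672 in WT against 5704 and 8875 in Msx2-KO).

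Beside the histones, the largest falls were readthrough or predicted loci and Dgkq. Gm38394, which overlaps Zc3h11a, stood at 3658 and 4014 in the WT libraries against 1.88 and 11.5 in the Msx2-KO libraries (log2 fold change -9.32 ± 0.89, adjusted p = 0.0266). Gm49388, Gm28036 and Gm28635 stood between 382 and 813 in WT and below 0.01 in Msx2-KO, and each overlaps 3 or more genes of the table. Dgkq, a diacylglycerol kinase whose gene overlaps Idua and Tmem175, stood at 562 and 497 in the WT libraries against 0.266 and 1.45 in the Msx2-KO libraries (log2 fold change -8.23 ± 0.58, adjusted p = 0.0266). Chosen after their values were seen, Kmt2d (10825 and 11262 in WT against 108 and 106 in Msx2-KO) and Srcap (5042 and 5189 in WT against 88.1 and 27.4 in Msx2-KO), a histone methyltransferase and a remodeller that installs H2A.Z, and Syne2 (18524 and 22636 in WT against 610 and 803 in Msx2-KO), which links the nucleus to actin, were also called lower. Their longest transcripts are 19823, 10654 and 21704 bases.

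Transcript length moved with the difference between the genotypes. Protein-coding genes whose longest GENCODE M21 transcript exceeds 8 kb took 15.1% and 17.0% of the protein-coding signal in WT against 4.25% and 5.27% in Msx2-KO. Of these 708 genes, 54 were called lower (7.63%) and 1 higher (0.141%). Of the 489 genes with transcripts up to 1 kb, 42 were called lower (8.59%) and 6 higher (1.23%), against 3.75% of all protein-coding genes called lower. Many of these short genes called lower were replication-dependent histones (median length 520 bases, 48 of 60 called lower). They were not taken out, so the share at the short end is not a result about length. In the 9242 protein-coding genes with a mean signal of at least 100, the median log2 fold change was 0.57 for transcripts of 1574 to 2148 bases and -0.80 for those over 7054 bases. It was 0.45 for the genes with up to 43.6% GC and -0.92 for those above 55.2%. Both WT libraries had the larger share of long transcripts, and the ranges of the genotypes did not overlap.

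**Figure D3:**
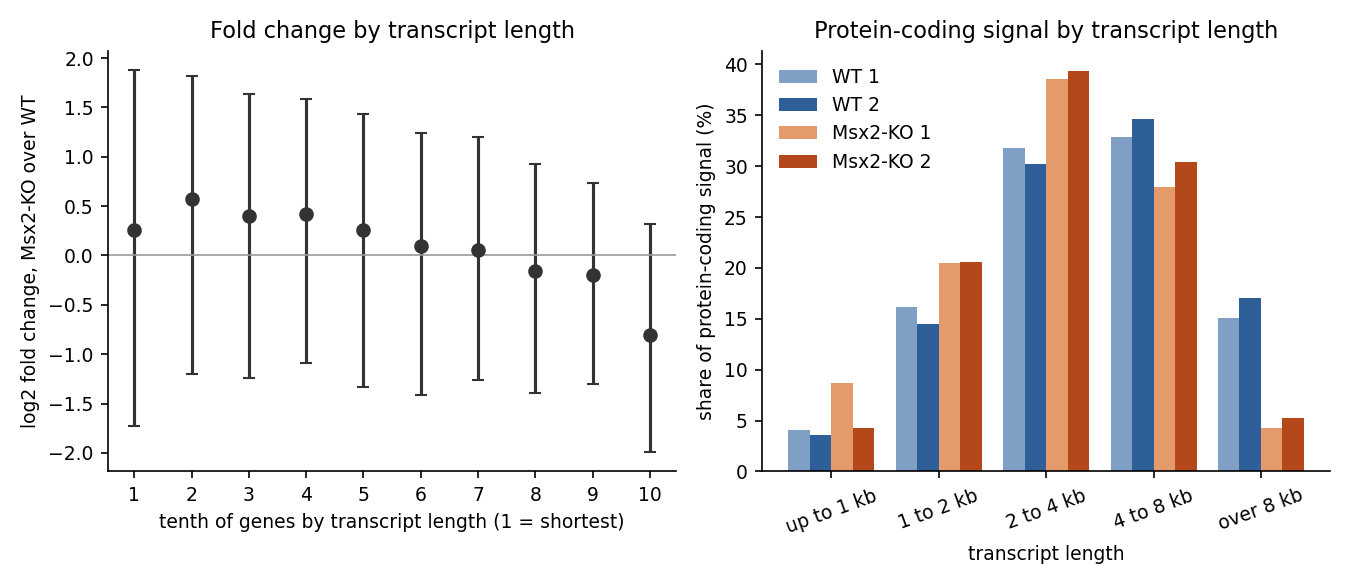
Left, median log2 fold change (Msx2-KO over WT) of protein-coding genes with a mean signal of at least 100, in 10 equal groups by transcript length; bars span the lower to the upper quartile of the genes. Right, share of the protein-coding signal (%) of each library in 5 classes of transcript length. Genes over 8 kb took 15.1% and 17.0% in WT against 4.25% and 5.27% in Msx2-KO.

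A few genes of terminal differentiation were called lower. Of 17 suprabasal markers, 3 were called lower (Dsc1, Ivl and Sbsn) and 0 higher (limma, where 0 higher and 6 lower had an unadjusted p under 0.05), with a median log2 fold change of -1.67, against 3.75% of all protein-coding genes called lower and 17.4% lower at an unadjusted p under 0.05. Ivl, the involucrin precursor of the cornified envelope, stood at 433 and 232 in the WT libraries against 2.55 and 9.44 in the Msx2-KO libraries (log2 fold change -5.71 ± 0.80, adjusted p = 0.0368). Sbsn, suprabasin, stood at 8563 and 6441 in the WT libraries against 747 and 648 in the Msx2-KO libraries (log2 fold change -3.41 ± 0.49, adjusted p = 0.0388). In both genes the Msx2-KO values lay far below either WT value. Krt10 and Krt1, the keratins of the spinous layer, stood at 158740 and 107937 in WT against 16336 and 30738 in Msx2-KO and at 99401 and 76032 in WT against 19059 and 39004 in Msx2-KO and did not pass the test (log2 fold change -2.55 ± 0.60, adjusted p = 0.0807 and log2 fold change -1.67 ± 0.61, adjusted p = 0.149). Mt4 (439 and 524 in WT against 21008 and 643 in Msx2-KO) and Krt2 (0 and 11.4 in WT against 302 and 30.3 in Msx2-KO) had the higher values in Msx2-KO without passing it.

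The cornified envelope list had 4 of 22 members called lower and 0 higher (limma, where 2 higher had an unadjusted p under 0.05), with a median of -2.64. Calls lower made up 3.75% of all protein-coding genes. Besides Ivl and Sbsn these were Ppl, periplakin, at 26692 and 27059 in the WT libraries against 344 and 1112 in the Msx2-KO libraries (log2 fold change -5.44 ± 0.76, adjusted p = 0.0374), and Tchh, trichohyalin, at 1100.5 and 617 in WT against 22.9 and 44.5 in Msx2-KO (log2 fold change -4.64 ± 0.64, adjusted p = 0.0365). Evpl, envoplakin, which pairs with periplakin, stood at 16605 and 16930.2 in the WT libraries against 16.6 and 243 in the Msx2-KO libraries and lay just outside the threshold (log2 fold change -8.0 ± 1.45, adjusted p = 0.0556). The small proline-rich gene Sprr2a2 stood at 107 and 91.2 in WT against 21782 and 1507 in Msx2-KO, higher in both Msx2-KO libraries, with copies nearby that are close in sequence. The 4 calls became 2 under a correction for transcript length and GC content, chosen after the data were seen, 1 with scaling to library totals and 0 with a pseudocount of 0.1.

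Among 22 keratins, 4 were called lower and 0 higher (limma, where 1 higher had an unadjusted p under 0.05), against 3.75% of all protein-coding genes called lower. Krt78, a keratin of differentiated layers, stood at 3591 and 2429 in the WT libraries against 49.7 and 76.8 in the Msx2-KO libraries (log2 fold change -5.56 ± 0.55, adjusted p = 0.0266). Krt27 and Krt71, keratins of the inner root sheath of the hair follicle, and Krt7, a simple-epithelial keratin, stood between 16.2 and 47.4 in WT and at 0 or below 1 in Msx2-KO. Krt15, a keratin of basal and bulge cells, stood at 79951 and 96241 in the WT libraries against 230109 and 177798 in the Msx2-KO libraries (log2 fold change 1.21 ± 0.49, adjusted p = 0.172).

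Desmosomes, the junctions that tie keratinocytes to each other, had 3 of 14 members called lower and 0 higher (limma, where 2 higher had an unadjusted p under 0.05). Dsp, desmoplakin, which links the junction to keratin filaments, stood at 169416 and 182990 in the WT libraries against 13146 and 6759 in the Msx2-KO libraries (log2 fold change -4.22 ± 0.58, adjusted p = 0.036). Dsg1b, a desmoglein, stood at 4199 and 3639 in the WT libraries against 209 and 138 in the Msx2-KO libraries (log2 fold change -4.52 ± 0.51, adjusted p = 0.0282), and Dsc1, a desmocollin of the upper layers, at 695 and 414 in the WT libraries against 11.5 and 14.2 in the Msx2-KO libraries (log2 fold change -5.29 ± 0.54, adjusted p = 0.0268). The genotypes did not overlap in any of them. With a correction for transcript length and GC content, chosen after the data were seen, Dsp had a log2 fold change of -2.78 (adjusted p = 0.0858, limma). Perp, a desmosomal membrane protein, went the other way, at 40224 and 34019 in the WT libraries against 269508 and 166709 in the Msx2-KO libraries, but did not pass the test (log2 fold change 2.52 ± 0.53, adjusted p = 0.0681). The median of the list was -0.22, and 3.75% of all protein-coding genes were called lower. Dsg1b is a near copy of Dsg1a, which stood at 27775 and 23105 in WT against 64734 and 9860.5 in Msx2-KO, so the split of reads between them is uncertain.

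Of 18 genes of hemidesmosomes and the basement membrane, 2 were called lower, both laminin chains, and 0 higher (limma, where 2 higher had an unadjusted p under 0.05). The share called lower over all protein-coding genes was 3.75%. Lama5 stood at 1981 and 2821 in the WT libraries against 96.8 and 224 in the Msx2-KO libraries (log2 fold change -3.99 ± 0.66, adjusted p = 0.0487) and Lamb1 at 70.4 and 107 in WT against 1.27 and 0.674 in Msx2-KO (log2 fold change -5.49 ± 0.53, adjusted p = 0.0266). Itgb4, the integrin chain that pairs with Itga6, stood at 7432 and 11067 in the WT libraries against 183 and 1148 in the Msx2-KO libraries (log2 fold change -4.30 ± 1.08, adjusted p = 0.0882), and Plec, the plectin that binds it to keratin, at 62339 and 94428 in WT against 177 and 3907 in Msx2-KO (log2 fold change -6.52 ± 1.69, adjusted p = 0.0921). Neither passed the test, although both Msx2-KO libraries lay below both WT libraries. The integrin pair thus went in opposite directions, Itga6 having the higher values in Msx2-KO. The longest transcripts of Plec and Lama5 have 15455 and 11388 bases, and with a correction for transcript length and GC content, chosen after the data were seen, their log2 fold changes were -2.90 and -1.07 (adjusted p = 0.201 and 0.225, limma with Benjamini-Hochberg adjustment).

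Cell-matrix adhesion genes gave 1 call in each direction among 30, with a median of 0.06. Over all protein-coding genes 3.75% were called lower and 1.23% higher. Postn, periostin, a matrix protein also on the list of hair follicle stem cell and hair germ markers, rose in Msx2-KO, from 457 and 489 to 10771 and 8326 (log2 fold change 4.32 ± 0.48, adjusted p = 0.0281). Itga1, a collagen-binding integrin chain, stood at 52 and 47.4 in the WT libraries against 0 and 0.674 in the Msx2-KO libraries (log2 fold change -5.29 ± 0.53, adjusted p = 0.0266). Postn was the 1 call among 11 hair follicle stem cell and hair germ markers (limma, where 1 other was lower at an unadjusted p under 0.05). The median of these 11 was 0.91. In 6 of the 11 both Msx2-KO libraries lay above both WT libraries and in 1 below, against 31.2% and 40.3% of all protein-coding genes. Among the 6 were Lgr6 (1630 and 2282 in WT against 7239 and 3927 in Msx2-KO) and Cdh3 (1067 and 1685 in WT against 2707 and 2354 in Msx2-KO), neither called. Lgr5 (0 and 7.59 in WT against 90.4 and 12.8 in Msx2-KO), Sox9 (511 and 786 in WT against 704 and 412 in Msx2-KO) and Lhx2 (8.67 and 37.9 in WT against 6.37 and 10.8 in Msx2-KO) did not pass the test. Of 12 infundibulum markers, 0 were called (limma, 5 lower and 0 higher at an unadjusted p under 0.05), with Krt17 at 2989.6 and 2487 in WT against 77.7 and 463 in Msx2-KO and Krt79 at 1954 and 2646 in WT against 4024 and 747 in Msx2-KO.

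Mitosis genes had more calls higher than any other list. Of 39, 5 were called higher and 0 lower (limma, where 17 higher and 3 lower had an unadjusted p under 0.05), the median log2 fold change was 1.82, and in 27 both Msx2-KO libraries lay above both WT libraries. Over all protein-coding genes these shares were 1.23% called higher, 13.1% higher at an unadjusted p under 0.05 and 31.2% above. Ube2c, the ubiquitin-conjugating enzyme of the anaphase-promoting complex, stood at 72.6 and 70.2 in the WT libraries against 4434 and 1678 in the Msx2-KO libraries (log2 fold change 5.24 ± 0.68, adjusted p = 0.0335). Cdk1, the mitotic kinase, stood at 53.1 and 56.9 in the WT libraries against 1455 and 655 in the Msx2-KO libraries (log2 fold change 4.13 ± 0.62, adjusted p = 0.0416), and Prc1, which bundles microtubules of the central spindle, at 544 and 406 in the WT libraries against 6153 and 5145 in the Msx2-KO libraries (log2 fold change 3.58 ± 0.49, adjusted p = 0.036). Every Msx2-KO value of these genes exceeded every WT value by over 8 times. Ccnb2, a B-type cyclin, stood at 63.9 and 49.3 in WT against 439 and 479 in Msx2-KO (log2 fold change 3.01 ± 0.48, adjusted p = 0.0457), and Aurkb, the kinase of the chromosomal passenger complex, at 42.2 and 54.1 in WT against 362 and 353 in Msx2-KO (log2 fold change 2.88 ± 0.48, adjusted p = 0.0487).

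The proliferation marker Mki67 stood out from that list, at 2517 and 2055 in the WT libraries against 7.64 and 294 in the Msx2-KO libraries, lower in both Msx2-KO libraries and not past the test (log2 fold change -5.49 ± 1.90, adjusted p = 0.138). Top2a, the topoisomerase of dividing cells, stood at 743 and 543 in the WT libraries against 544 and 558 in the Msx2-KO libraries, with overlapping groups, and Cenpf at 662 and 664 in WT against 229 and 161 in Msx2-KO. The longest transcripts of Mki67 and Cenpf have 10061 and 11130 bases, against 2191 for Ube2c and 1531 for Ccnb2. Cenpe and Mad2l1, of 7910 and 7557 bases, were higher in both Msx2-KO libraries. Incenp, Ndc80 and Hmmr, of 3449, 3847 and 3892 bases, were lower in both. Whether length has a part in these directions was not tested. With the correction for transcript length and GC content, Ube2c was no longer called, with a log2 fold change of 5.56 (adjusted p = 0.0509, limma) and Mki67 had one of -4.65. The 5 mitosis calls became 2 under that correction, 2 with a pseudocount of 0.1 and 3 with scaling to library totals.

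**Figure D4:**
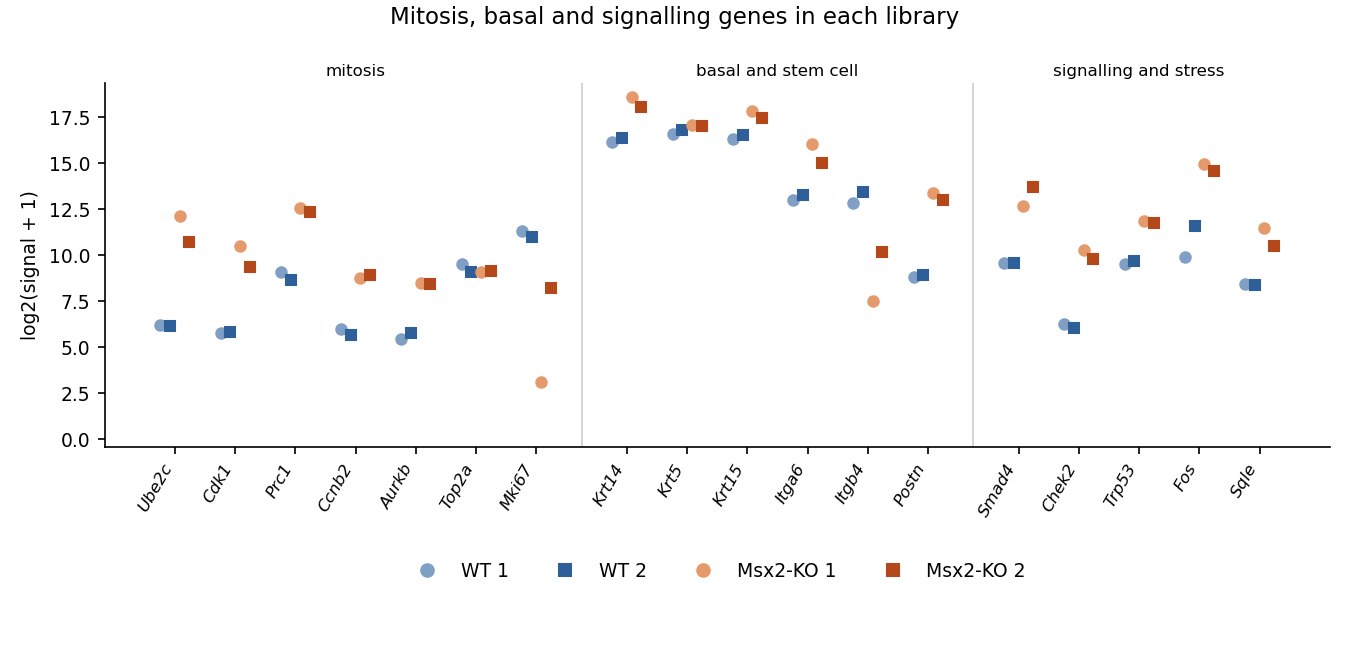
Normalised signal of 18 genes in each library, as log2(signal + 1), 1 point per library (circles, replicate 1; squares, replicate 2). The Msx2-KO points of Ube2c, Cdk1, Prc1, Ccnb2 and Aurkb lie above both WT points, those of Mki67 and Itgb4 below them.

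DNA replication and chromatin assembly are themes that the study drew from these libraries, so the counts of their lists are not independent evidence of a direction. Of 51 DNA replication genes, 1 was called lower and 0 higher (limma, where 7 higher and 2 lower had an unadjusted p under 0.05), and the median was -0.05. The call was Pold1, the catalytic subunit of DNA polymerase delta, at 287 and 406 in the WT libraries against 12.7 and 27.6 in the Msx2-KO libraries (log2 fold change -4.11 ± 0.62, adjusted p = 0.0426). Mcm7, a subunit of the replicative helicase, stood at 656 and 747 in the WT libraries against 8059 and 4819 in the Msx2-KO libraries and missed the threshold (log2 fold change 3.15 ± 0.54, adjusted p = 0.0506). Of 29 chromatin assembly genes, the histone chaperone Nap1l4 was called higher, at 1064 and 986 in the WT libraries against 28114 and 12767 in the Msx2-KO libraries (log2 fold change 4.21 ± 0.62, adjusted p = 0.0399), and Supt16, a subunit of the chaperone FACT, lower, at 2498 and 2372 in the WT libraries against 48.6 and 16 in the Msx2-KO libraries (log2 fold change -6.39 ± 0.72, adjusted p = 0.0282). In all 4 genes the genotypes did not overlap. The median of the chromatin assembly list was 0.30. Calls over all protein-coding genes were 1.23% higher and 3.75% lower.

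The checkpoint kinase Chek2 was the call among 59 genes of the DNA damage response and repair, 1 higher and 0 lower (limma, where 4 higher and 13 lower had an unadjusted p under 0.05). A single call is near the 1.23% of all protein-coding genes called higher. It stood at 74.7 and 64.5 in the WT libraries against 1253 and 874.9 in the Msx2-KO libraries (log2 fold change 3.9 ± 0.50, adjusted p = 0.0327). Trp53, which encodes p53, stood at 741 and 816 in the WT libraries against 3667 and 3435 in the Msx2-KO libraries and did not pass the test (log2 fold change 2.19 ± 0.46, adjusted p = 0.0684). Both had all Msx2-KO values above all WT values, while the median of the list was -1.13. Of 42 apoptosis genes, another theme the study drew from these libraries, 0 were called (limma, 3 higher and 2 lower at an unadjusted p under 0.05). Their median was 0.40. In 17 of them both Msx2-KO libraries lay above both WT libraries and in 11 below, against 31.2% and 40.3% of all protein-coding genes. Prkacb stood at 302 and 328 in WT against 7994 and 2531 in Msx2-KO (limma, log2 fold change 3.83 ± 0.76, adjusted p = 0.0628). Bcl2l1, an inhibitor of apoptosis, stood at 624 and 637 in WT against 61.1 and 185 in Msx2-KO. Its antagonist Bad stood at 358 and 332 in WT against 36.9 and 94.2 in Msx2-KO.

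Immediate early genes, which are switched on within minutes by growth factors or by tissue handling, gave 0 calls among 25, with 8 higher and 0 lower at an unadjusted p under 0.05 in limma and a median of 1.00. Fos stood at 953 and 3052 in the WT libraries against 31292 and 23996 in the Msx2-KO libraries (log2 fold change 4.0 ± 0.77, adjusted p = 0.0609) and Dusp1 at 1659 and 2838 in WT against 13126 and 36899 in Msx2-KO. Atf3 differed most between the Msx2-KO libraries, at 120.2 and 338 in the WT libraries against 1.27 and 3735 in the Msx2-KO libraries. Of 57 heat shock genes, Dnajc1, a co-chaperone of the endoplasmic reticulum, was called lower at 753 and 697 in WT against 59.8 and 100.4 in Msx2-KO (log2 fold change -3.21 ± 0.53, adjusted p = 0.0489) and 0 were called higher (limma, 8 higher and 10 lower at an unadjusted p under 0.05). Of 22 interferon response genes, 0 were called (limma, 1 higher and 2 lower at an unadjusted p under 0.05).

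In signalling pathways few members passed the test, against 1.23% of all protein-coding genes called higher and 3.75% called lower. Of 26 TGF-beta genes, Smad4, the shared mediator of TGF-beta and BMP signals, was called higher, at 759 and 769 in the WT libraries against 6526 and 13302 in the Msx2-KO libraries (log2 fold change 3.61 ± 0.59, adjusted p = 0.048), and 0 were called lower (limma, where 4 lower had an unadjusted p under 0.05, among them Ltbp3 at 1046 and 1106 in WT against 179 and 176 in Msx2-KO and Ltbp4 at 1963 and 3559 in WT against 377 and 296 in Msx2-KO). Of 18 BMP genes, 0 were called (limma, 4 higher and 0 lower at an unadjusted p under 0.05). The BMP targets Id1 and Id2 stood at 203 and 249 in WT against 2353 and 1324 in Msx2-KO (log2 fold change 2.97 ± 0.56, adjusted p = 0.0588) and at 28.2 and 50.3 in WT against 1003 and 373 in Msx2-KO (log2 fold change 3.99 ± 0.75, adjusted p = 0.0589). Both had all Msx2-KO values above all WT values.

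Of 40 Wnt genes, Lrp5, a co-receptor, was called lower, at 1969 and 2353 in the WT libraries against 48.4 and 76.8 in the Msx2-KO libraries (log2 fold change -5.12 ± 0.52, adjusted p = 0.0268), and 0 were called higher (limma, where 6 higher and 9 lower had an unadjusted p under 0.05). The ligand Wnt5a stood at 214 and 236 in WT against 1648 and 1147 in Msx2-KO (log2 fold change 2.60 ± 0.50, adjusted p = 0.0601), Wnt7a at 27.1 and 24.7 in WT against 1675 and 243 in Msx2-KO (log2 fold change 4.58 ± 1.11, adjusted p = 0.0835), and the feedback target Axin2 at 2908 and 3241 in WT against 427 and 1173 in Msx2-KO. The ligands Wnt6 and Wnt16 had lower values, at 139.7 and 88.2 in WT against 21.6 and 31 in Msx2-KO and at 188 and 243 in WT against 43.3 and 74.1 in Msx2-KO, so that Wnt ligands lay in both directions. Of 17 Notch genes, 0 were called (limma, 1 higher and 3 lower at an unadjusted p under 0.05), with the receptors Notch1 at 9339 and 8759 in WT against 1820.3 and 2798 in Msx2-KO and Notch2 at 3517 and 2841 in WT against 556 and 121 in Msx2-KO and the nuclear partner Rbpj at 443 and 509.7 in WT against 4681 and 2231 in Msx2-KO.

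Ribosomal protein genes differed in both directions. Of 81, 5 were called lower and 1 higher, against 3.75% and 1.23% of all protein-coding genes, with a median log2 fold change of -0.93. Rpl13a stood at 20315 and 19454 in the WT libraries against 2767 and 2368 in the Msx2-KO libraries (log2 fold change -2.96 ± 0.47, adjusted p = 0.0452). Rpl35, Rpl39 and Rps29 were also called lower, with log2 fold changes of -5.10, -4.44 and -4.60, while Rpl27 was the call higher. Called genes of the same particle thus lay in both directions. Many ribosomal protein genes have near-identical pseudogenes, and how reads were shared between them is not stated.

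Of 87 nuclear genes of oxidative phosphorylation, 3 were called lower and 0 higher (limma, where 8 higher and 22 lower had an unadjusted p under 0.05), with a median of -1.04, against 3.75% of all protein-coding genes called lower. These were Ndufa5, a subunit of complex I, at 266 and 232 in WT against 6.37 and 10.1 in Msx2-KO (log2 fold change -4.79 ± 0.51, adjusted p = 0.0277), Ndufab1 at 636 and 600 in WT against 47.1 and 71.5 in Msx2-KO (log2 fold change -3.39 ± 0.51, adjusted p = 0.0413) and Atp5mpl, of the ATP synthase, at 569 and 477 in WT against 63.7 and 40.4 in Msx2-KO (log2 fold change -3.33 ± 0.52, adjusted p = 0.0448). Of the 15 mitochondrially encoded genes, mt-Rnr1 was the 1 call, and mt-Co3 stood at 5540 and 5869 in WT against 103784 and 36839 in Msx2-KO and mt-Nd5 at 22724 and 38372 in WT against 5240 and 2966 in Msx2-KO, in opposite directions. Of 19 glycolysis genes, 0 were called (limma, 3 higher and 2 lower at an unadjusted p under 0.05). Of 22 genes of cholesterol synthesis, 0 were called either, but 10 were higher and 0 lower at an unadjusted p under 0.05 (limma), with a median of 1.39 and with 16 in which both Msx2-KO libraries lay above both WT libraries, against 13.1% and 31.2% of all protein-coding genes. Sqle, squalene epoxidase, stood at 352 and 337 in WT against 2886 and 1446 in Msx2-KO (log2 fold change 2.57 ± 0.58, adjusted p = 0.0769) and Fdft1, squalene synthase, at 503 and 479 in WT against 4375 and 2094 in Msx2-KO (log2 fold change 2.62 ± 0.60, adjusted p = 0.0774).

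Some markers of other cells were in the table. Of 15 immune markers, 12 were in the table and 0 were called (limma, 5 lower and 0 higher at an unadjusted p under 0.05). Their summed signal was 1187 and 146 in WT against 509 and 184 in Msx2-KO, highest in WT replicate 1, in which Cd74 stood at 374, against 37.9 in WT replicate 2 and 0 and 2.7 in Msx2-KO. Ptprc (CD45) stood at 94.2 in that library and at 0 in the other 3. H2-Eb1, a class II histocompatibility gene, went the other way, at 105 and 28.5 in the WT libraries against 484 and 171 in the Msx2-KO libraries, and made most of the Msx2-KO sums. Of 13 fibroblast markers, only Sparc (566 and 476 in WT against 5439 and 2782 in Msx2-KO) and Col6a1 (122 and 131 in WT against 35.7 and 115 in Msx2-KO) were in the table, and the defining Col1a1, Col1a2, Col3a1, Pdgfra and Dcn were not. Neither was called (limma, 1 higher and 0 lower at an unadjusted p under 0.05). The 4 endothelial and pericyte markers listed summed to 549 and 878 in WT against 157 and 156 in Msx2-KO, and Cdh5 and Kdr were not listed. Of these 4, 0 were called (limma, 1 higher and 0 lower at an unadjusted p under 0.05). Cspg4 stood at 516 and 829 in WT against 5.09 and 121 in Msx2-KO. Acta2 stood at 24.9 and 22.8 in WT against 127 and 16.2 in Msx2-KO. Pecam1 had higher values in Msx2-KO, at 8.67 and 4.74 in WT against 24.2 and 18.2 in Msx2-KO. Of the melanocyte markers only Mitf (112 and 175 in WT against 24.2 and 238 in Msx2-KO), and of the muscle markers only 1 of 8, were in the table, and the 5 erythrocyte markers were not. Of 16 sebaceous gland markers, 9 were listed and 0 were called (limma, 2 higher and 0 lower at an unadjusted p under 0.05). They summed to 10864 and 9693 in WT against 34202 and 14565 in Msx2-KO, with Scd1 at 3585 and 4465 in WT against 23465 and 9990 in Msx2-KO. Their median log2 fold change was -1.34, or 0.39 without the 2 members below 0.01 in both Msx2-KO libraries. Fasn went the other way, at 2926 and 2632 in WT against 1571 and 768 in Msx2-KO. Awat1, Awat2, Elovl3 and Pparg were not listed. The part of these cells in the results was not tested.

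The Msx2-KO libraries were much less alike than the WT libraries. In the 9242 protein-coding genes with a mean signal of at least 100, Pearson's r of the log2 values across genes was 0.966 between the WT libraries, 0.738 between the Msx2-KO libraries and 0.310 to 0.549 between genotypes. Genes are not independent replicates, so no p is given. A difference of more than 4-fold separated the WT libraries in 23 of these genes (0.249%) and the Msx2-KO libraries in 2308 (25%). The second Msx2-KO library lay that far from the WT libraries in 2058 (22.3%) and 2050 (22.2%), fewer than from the first Msx2-KO library, and the first did so in 4085 (44.2%) and 4097 (44.3%). Of the 12 genes furthest apart in Msx2-KO, Capn12, a calpain, stood at 26.4 and 25.9 in WT against 2302 and 1.45 in Msx2-KO, and Il1r2, the decoy receptor of interleukin 1, at 640.1 and 754 in WT against 0 and 885 in Msx2-KO. Eif3c, a translation initiation factor subunit, stood at 3697 and 3471 in the WT libraries against 0 and 1232 in the Msx2-KO libraries. Lmf2, H2-Q4 and Wbp1l were likewise listed at 0 in the first Msx2-KO library and stood at 653, 610.3 and 563 in the second. Fxyd4 and Tmod1 went the other way, with 539 and 457 in the first and 0 and 0.120 in the second. Ddx3y, Eif2s3y and Uty, on the Y chromosome, were 3 of the 12.

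**Figure D5:**
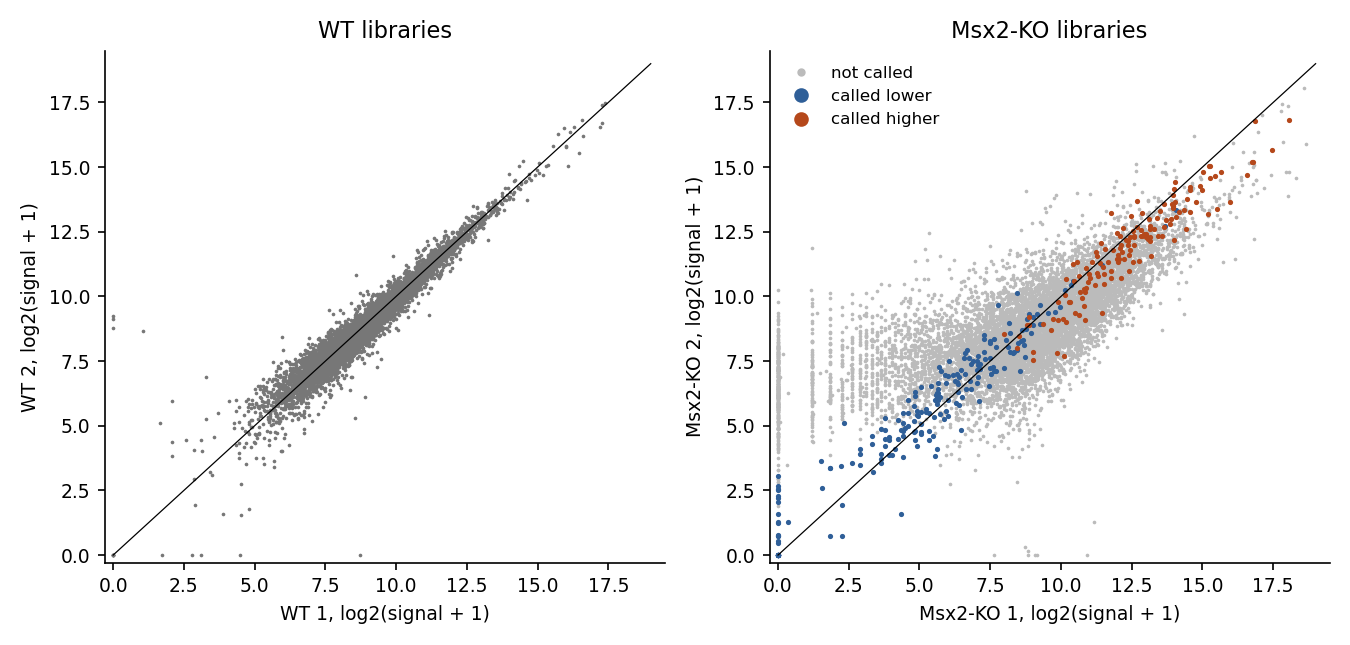
Log2(signal + 1) of protein-coding genes with a mean signal of at least 100 in the WT libraries (left, replicate 2 against replicate 1) and in the Msx2-KO libraries (right, with genes called lower or higher coloured); the line marks equal values. Of the 9242 genes, 23 lay more than 4-fold apart in WT and 2308 in Msx2-KO.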

How the data were processed

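EpdSCs were sorted from dorsal skin, and libraries were made from total RNA with a SMARTer stranded kit for total RNA. Per the labels' processing notes and the methods, the authors aligned reads with STAR 2.7.3a in Partek Flow to GRCm38/mm10, with GENCODE M25 genes. The deposited values are a normalised signal, estimated counts per gene divided by the authors by 1 factor per library. The counting method, strand setting and low-count filter are not given in the sources used here, and every gene reached 10.1 in some library. The other deposited file of EpdSCs holds the authors' comparison (means, ratios, fold changes, p-values), of which only gene type and position were used. Tables of the other cell type were not used here.

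The groups were taken from the labels. Columns with values not mapped to a sample numbered 0. limma 3.58.1 in R 4.3.3 was run on log2(signal + 1) of all 16231 genes, without a filter, with a prior spread common to all genes (1.81 prior degrees of freedom) and Benjamini-Hochberg adjustment. Calls needed an adjusted p under 0.05 and a fold change over 2. The number of counted reads is the summed signal divided by the commonest low step of a library; 80.5% to 87.4% of values up to 20 steps were within 0.1 of a whole step, so whole reads could not be recovered and depth is approximate. Transcript lengths and GC content are those of the longest GENCODE M21 transcript of a symbol (12294 of 12348 protein-coding genes matched, some through older RefSeq symbols). The file's Stop coordinate was 1 base past the gene end and was corrected. The fit was also run on simulated libraries drawn from the WT means, with the same spread in both genotypes. The Msx2-KO libraries here differed far more than the WT libraries, so that run does not show how the fit behaves on them.

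The libraries and gene lists were chosen with earlier results of these data known. Genes named were the 12 highest and the 12 lowest log2 fold changes of called protein-coding genes (mean 100 or more, groups apart), called or most abundant members of each list, Msx2 and the sorting markers, the largest calls of each other gene type and the 6 genes in each direction furthest apart between the Msx2-KO libraries. Others are given as chosen after their values were seen, or are further list members given as values. Some results that the rule would name are not reported here. Alternatives were other pseudocounts, filters and scalings, an intensity trend, a replicate block, leaving out each library, and a length and GC correction added after the data were seen. Python 3.11.15 with matplotlib 3.10.9 drew the plots.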

Additional observations from a re-analysis of the deposited data

How the results depend on the processing

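The counts of calls moved with the settings. For protein-coding genes, the 152 calls higher became 75 with a pseudocount of 0.1, 513 with a pseudocount of 10, 572 with an intensity trend and 0 when only protein-coding genes were fitted, and the 463 calls lower became 298, 770, 638 and 0. Over all genes, the 255 calls higher became 162, 619 and 684 under the first 3 of these settings. With the replicate block, 76 protein-coding genes were called higher (178 of all genes) and 398 lower (1093 of all genes lower). The deviations of same-numbered libraries had correlations of -0.02 over all genes and -0.07 over 9242 protein-coding genes, so the libraries share only a number. Leaving out each library gave 0 to 3745 calls higher and 0 to 6631 lower over all genes, 0 to 3284 and 0 to 4498 for protein-coding genes, and 0 to 461 and 0 to 2133 for genes of other types. The 0 came without WT replicate 1 or WT replicate 2, where the spread came from the Msx2-KO libraries, and the highest counts without Msx2-KO replicate 2, where it came from the WT libraries and a lone library was assumed to vary like them. The log2 fold change of Msx2, -0.27 with all libraries, ranged from -1.625 without Msx2-KO replicate 1 to 1.077 without Msx2-KO replicate 2, and the cause was not tested. Scaling to library totals moved the median protein-coding fold change by -0.26 on the log2 scale (to -0.58, and that of all genes to -0.88), and called 1095 genes lower and 273 higher.

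Count models (edgeR and DESeq2) on recovered reads were not run, because whole reads could not be recovered from the values. All 47 called genes among the named genes tested lost their call without either WT library, as did all 43 protein-coding ones in the fit of protein-coding genes alone. With 2 libraries a genotype and 25% of abundant protein-coding genes (mean 100 or more) over 4-fold apart between the Msx2-KO libraries, a p that misses the threshold does not show equal levels. Counted reads, which are approximate, were not fewer in Msx2-KO, where more genes stood at 0, and the cause was not tested.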
